A study of Mus musculus with 2 samples.

Results

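The phosphodiesterase 6 (PDE6) gene group was examined in mouse retina at postnatal day 12 as 7 genes: the rod subunits Pde6a, Pde6b and Pde6g, the cone subunits Pde6c and Pde6h, the prenyl-binding protein gene Pde6d, and Aipl1, which encodes their chaperone. They were chosen by name, as the non-control probes whose transcript accession belongs to one of these genes in RefSeq, and not by their signal. This gave 9 probes of 55681, and 7 genes of 21367 that could be named. One group was labelled wild type and the other Samd7 KO, a knockout of a photoreceptor gene whose product carries a sterile alpha motif; both were whole dissected retina, with 1 array per group. Strain, sex, the number of animals behind each RNA sample and the part of Samd7 that was removed are not given in the sources used here.

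PDE6 is the effector enzyme of vision. In the light, activated transducin draws the small inhibitory gamma subunits away from the catalytic subunits, the enzyme then hydrolyses cGMP, and the cation channels of the outer segment close. Rods build the enzyme from the catalytic subunits encoded by Pde6a and Pde6b with the inhibitor encoded by Pde6g, while cones use a catalytic subunit encoded by Pde6c with their own inhibitor encoded by Pde6h. The catalytic subunits carry prenyl lipids, the product of Pde6d binds such lipids, and AIPL1 is needed for a stable, assembled enzyme.

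All 7 genes differed little between the arrays. Differences are given throughout on the log2 scale, as the array labelled KO minus the array labelled wild type, after each array was set to the 75th percentile of its own spots, and a gene with several probes is represented by its brightest. They ran from -0.21 for Pde6g to 0.035 for Pde6d, with a median of -0.065, against a median of -0.023 over the 15926 genes above background on at least 1 array. No member was 2-fold apart, where 2.94% of all genes tested were, and none was 1.5-fold apart, where 6.16% were. Of the 7 members, 6 lay below 0, as did 57.7% of all genes tested. With 1 array per group there is no spread between animals and no test, so each value compares these arrays only, and in whole retina fewer cells of a type and less RNA per cell cannot be told apart.

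Detection was similar on the arrays, with 60.3% of non-control spots well above background in wild type and 60.9% in KO, 0 saturated spots and both arrays on 1 slide. The only named Samd7 probe read 3.44-fold more on the array labelled KO, at a log2 signal of 6.47 against 4.68, which goes against that label if the probe covers deleted sequence. The place of the probe relative to the deletion is not known here, every direction given rests on the labels, and wild type and KO below mean the array so labelled. As retina markers, all 8 bipolar, 7 Müller glia, 8 amacrine and horizontal and 7 ganglion cell genes were above background on both arrays.

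Of the rod subunits, the inhibitor Pde6g (probe A_55_P2177864) showed the lowest difference of the group. Its processed signal, in the scanner's intensity units, was 120143 in wild type and 100037 in KO, which is a log2 signal of 7.71 against 7.50. Wild type was thus the higher by 1.16-fold, a difference of -0.21. Among 4737 bright genes, those with a mean log2 signal of 2 or more on both arrays, 5.32% had a difference this low or lower. The catalytic alpha subunit Pde6a (A_55_P2062449) gave 37443 in wild type and 32401 in KO, log2 signals of 6.03 and 5.87. It too was higher in wild type, by 1.11-fold (-0.16), and 8.47% of bright genes were at or below it. The catalytic beta subunit Pde6b (A_51_P394474) was closer to level, at 16653 and 15298, or 4.86 against 4.79 (-0.069), and 28.7% of bright genes were at or below it.

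The cone subunits were nearer to 0 in their brightest probes. Pde6c, the cone catalytic subunit (A_66_P134394), gave a processed signal of 3118 in wild type and 2932 in KO, a log2 signal of 2.44 against 2.40 and a difference of -0.036. A difference that low or lower was found in 43.0% of bright genes. The cone inhibitor Pde6h (A_51_P273157) was the most level of the 7, at 4616 and 4419, or 3.006 against 2.996, a difference of -0.0098 that 55.1% of bright genes were at or below. Both genes had another, dimmer probe that gave a lower value. That of Pde6c (A_55_P2001481) read 331 and 281, a difference of -0.19, and that of Pde6h (A_55_P2001518) read 3157 and 2808, a difference of -0.12. The probes of Pde6c were therefore 0.15 apart and those of Pde6h 0.11 apart, where over the 4131 genes with 2 or more measured probes the median range was 0.10.

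Both partner genes were near level. Pde6d (A_51_P488092), which also serves prenylated proteins outside the phosphodiesterase complex, was the only member above 0. Its processed signal was 4603 in wild type and 4544 in KO, and scaling to the 75th percentile turned this into log2 signals of 3.002 and 3.037, a difference of 0.035 with 74.4% of bright genes at or below it. Aipl1 (A_52_P130639) gave 4268 and 3933, or 2.89 against 2.83, a difference of -0.065, with 30.4% of bright genes at or below it and 0.0045 from that of Pde6b. Before scaling, all 9 probes were dimmer on the array labelled KO, whose 75th percentile was lower by 0.053 on the log2 scale.

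**Figure D1:**
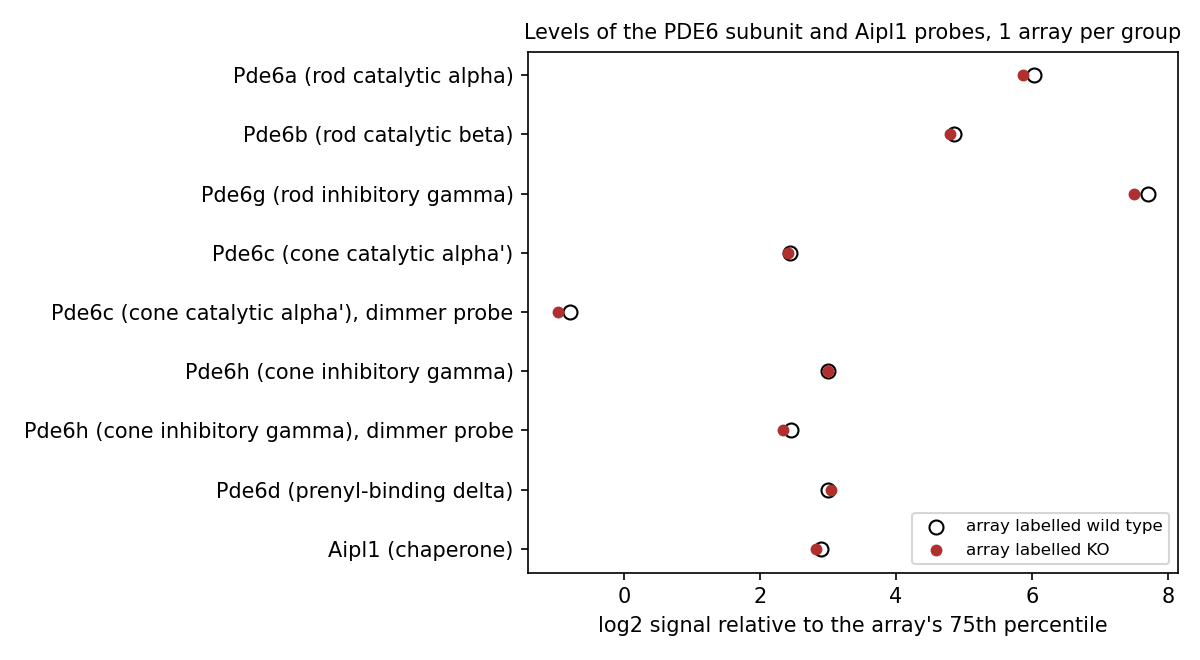
Log2 signal of each of the 9 probes relative to the 75th percentile of its array (x axis), with wild type as open circles and KO as filled ones. The widest gap is that of Pde6g, from 7.71 to 7.50, and the circles of Pde6h at 3.006 and 2.996 nearly coincide; levels of different probes cannot be set against each other.

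Measurement error limited what could be said of differences this small. Each of the 9 probes had 1 spot per array, so none has its own repeat. Bright probes spotted repeatedly on the arrays, 80 with a log2 signal of 2 or more, had differences with a pooled SD of 0.040 between spots of the same probe, and the dimmer Pde6c probe falls in a class with an SD of 0.086. Against these values, 4 of the 9 probes were more than 2 SD from 0. They were those of Pde6g, Pde6a, the dimmer one of Pde6h and the dimmer one of Pde6c. The share of all probes past 2 SD was not counted. Such distances were common, since the 25th percentile of the bright genes was -0.080, about 2 SD below 0. The scanner software's own error estimate was wider, about 10% of the signal at each member spot, or 0.20 on the log2 scale for the difference of 1 bright probe. Of the 9 probes 8 lay within that estimate, and Pde6g lay 1.03 times its width from 0. In the order from Pde6g up to Pde6d, only the step from Pde6a to Pde6b, of 0.086, exceeded the repeated-spot SD of a difference between 2 probes, 0.057. Both error measures leave out the variation between animals and between labelling reactions.

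**Figure D2:**
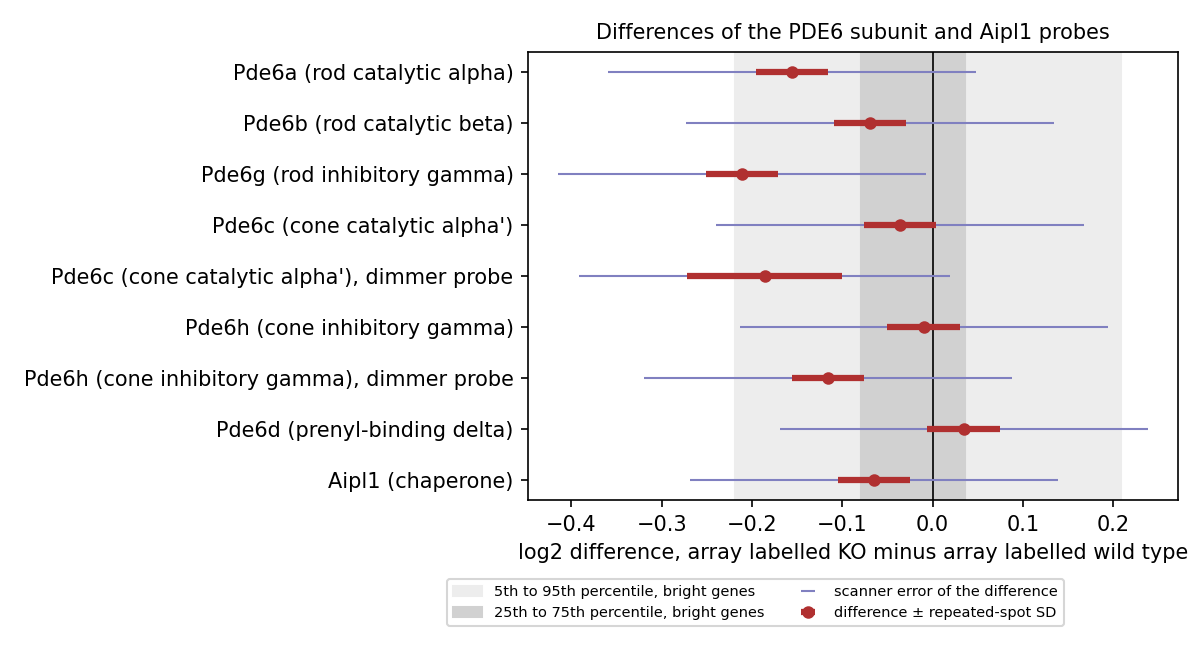
Log2 difference of each probe (x axis, KO minus wild type), with thick bars for the repeated-spot SD and thin bars for the scanner error of the difference; shaded bands give the 25th to 75th and the 5th to 95th percentile of 4737 bright genes. All 9 points lie between the 5th percentile at -0.22 and the 95th at 0.21, and only the thin bar of Pde6g, at -0.21, stays clear of 0.

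Each member spot was also set against its neighbours on the array. Among spots within 10 rows and 10 columns of each member spot, the median difference ran from -0.053 around Pde6d to 0.0071 around the dimmer Pde6h probe. Less that local median, Pde6g was at -0.20, Pde6a at -0.13, Pde6b at -0.035 and Aipl1 at -0.035. The cone subunits were then at -0.0004 for Pde6c and 0.0036 for Pde6h, and Pde6d was at 0.0875. Pde6h thereby changed its sign, and Pde6d moved by more than the repeated-spot SD of 0.040.

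By brightest probe, the mean difference was -0.15 over the 3 rod subunits and -0.023 over the 2 cone subunits, a gap of -0.12. This gap depended on which cone probes were used. With the mean over probes it was -0.058, and with the dimmest probe of each gene it was 0.0055, on the opposite side of 0. The cone subunits also changed side under some scalings: the median of the pair was 0.0092 with arrays centred on their medians and 0.0012 after cyclic loess.

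The rod subunits lay nearer to 0 than the 9 genes listed here as other rod phototransduction, each gene taken by its brightest probe. This rests on how the lists were drawn, since regulators shared by rods and cones form a separate list. In that list Gnb5 (-0.16) and Gucy2e (-0.013) were nearer to 0 than Pde6g, and the others were farther from 0. Of 9 other rod phototransduction genes, all were below 0, where 57.7% of all genes tested were. All 9 were also lower than Pde6g, and 5.32% of bright genes were at or below the difference of Pde6g. The 9 had differences from -2.13 to -0.28 and a median of -0.40, whereas Pde6g, Pde6a and Pde6b lay between -0.21 and -0.069. These ranges did not overlap, nor did they under the 7 other settings for which they were compared. Median centring, the authors' value table and kept flagged spots left the gap at its main value of 0.069. These settings shift both lists alike or not at all, so they could not make the ranges overlap. That gap is smaller than the scanner error of 0.20 for 1 difference. By its dimmer probe, Grk1 of the same list was at -0.22, close to Pde6g at -0.21. Genes are not replicates, both lists were chosen with earlier results known, and the gap has no test. The rod transducin alpha subunit Gnat1, which activates PDE6, had log2 signals of 7.10 and 4.97 and was 4.38-fold lower in KO, the only one of the 9 at least 2-fold apart. The difference of Gnat1 minus that of Pde6g was -1.92. The members closest to level in that list were the transducin gamma subunit Gngt1 (-0.28) and the rod arrestin Sag (-0.28).

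Pigment epithelium, microglia and endothelial genes also lay on the lower side. All 10 pigment epithelium markers were above background on both arrays and 9 of them were below 0, where 57.7% of all genes tested were. Their summed level was 52.2 in wild type and 44.4 in KO, each level taken relative to the 75th percentile on the linear scale. The brightest of these markers, at a log2 signal of 4.49 on both arrays, is also in the Müller glia list. The 6 microglia markers summed to 11.3 and 9.91 with 6 below 0, and the 6 endothelial and pericyte markers to 12.3 and 11.3 with 5 below 0. The lens list lay on the other side, with 11 of 12 markers above 0 and a summed level of 4.99 against 20.5. Of the 12, 9 were at least 2-fold higher, where 1.58% of all genes tested were. In 1 of these 9 the value is a bound, its wild-type signal being at background. With normexp on median signals, 7 lens markers were at least 2-fold higher. Of the red blood cell markers with a probe, 4 of 5 were above 0, with sums of 72.1 and 90.0. Their part in the member differences was not tested.

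Cone phototransduction genes spread widely, and some of them stayed near 0 as the cone PDE6 subunits did. The 9 other cone genes ran from -0.17 to 2.91 with a median of 0.89, and 4 were higher in KO by 2-fold or more, where 1.58% of all genes tested were. These were the channel subunits Cnga3 (2.91) and Cngb3 (2.14), the transducin gamma subunit Gngt2 (2.45) and the short-wavelength opsin Opn1sw (2.09). Cnga3 is opened by the cGMP that the Pde6c product breaks down; its log2 signal was 0.076 in wild type and 2.98 in KO, so that Cnga3 minus Pde6c was 2.94. The lower end of the list held the medium-wavelength opsin Opn1mw (-0.17) and the exchanger Slc24a2 (-0.063). Gnat2, the cone transducin alpha subunit, was near level as well, at log2 signals of 4.73 and 4.77 (0.044). Both cone PDE6 values thus lay inside the range of the other cone genes, toward its lower end.

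Regulators shared by rods and cones were mostly lower in KO, with 8 of 9 below 0, where 57.7% of all genes tested were, and a median of -0.28. The guanylate cyclase activator Guca1b (-1.33, and -2.07 in its other probe), whose product drives the resynthesis of the cGMP that PDE6 removes, was the only one at least 2-fold apart, where 1.37% of all genes tested were at least 2-fold lower. Rgs9bp, which anchors the complex that ends the action of transducin on PDE6, was at -0.51, with -0.24 in its dimmer probe. Its partner Rgs9 was at -0.40, but the other 2 probes of that gene gave 0.069 and 0.017. At the other end were the activator Guca1a (0.38) and the guanylate cyclase Gucy2e (-0.013). The other 2 probes of Gucy2e were lower, at -0.22 and -0.34. Among 27 genes of these 3 lists, those nearest to Pde6g in difference were phosducin, Pdc (-0.24), Opn1mw (-0.17) and the G protein beta subunit Gnb5 (-0.16), a likeness that rests on 1 difference over 2 arrays.

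**Figure D3:**
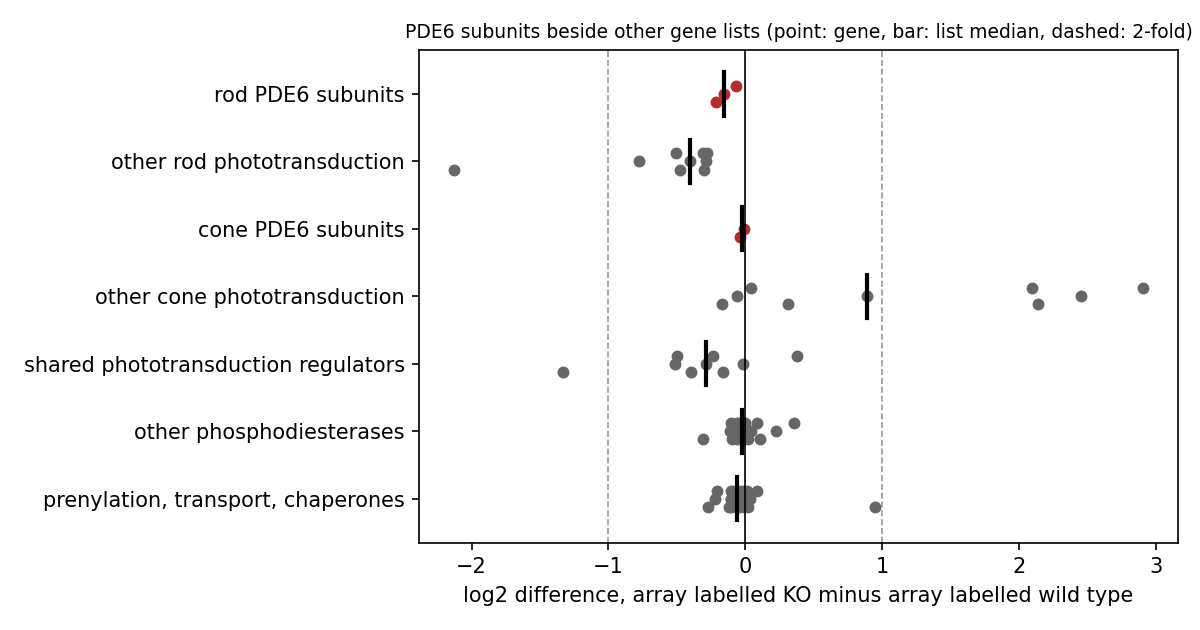
Log2 difference of single genes (points; x axis, KO minus wild type) in 7 lists, with a bar at each median and dashed lines at 2-fold. The PDE6 subunits, in red, lie between -0.21 and -0.0098, while the other rod genes reach -2.13 and the other cone genes 2.91.

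The remaining cyclic nucleotide phosphodiesterases, most of them outside photoreceptor outer segments, were also near level. All 18 were above background on both arrays, and the median was -0.024. Of the 18, 12 were below 0, where 57.7% of all genes tested were, and 0 were at least 2-fold apart, where 2.94% were. Pde1c, a calmodulin-dependent enzyme, had the highest value (0.36), but its other probe above background gave -0.12. Pde8a, a cAMP-specific enzyme, was next (0.22, and 0.055 after normexp). The lowest were Pde11a (-0.31, and -0.034 after normexp) and the cAMP-specific Pde4b (-0.11, but -0.15 and 0.21 in its dimmer probes).

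Genes for prenylation, for transport of lipidated proteins and for the chaperones related to AIPL1 had a median of -0.059. Of these 22, 16 were below 0, where 57.7% of all genes tested were, and 0 were at least 2-fold apart, where 2.94% were. Nudt9 (-0.029), which has no such role, was put in this list by mistake; without it 15 of 21 were below 0 and the median was -0.061. The highest was Unc119b, which encodes a carrier of acylated proteins, at log2 signals of 0.38 and 1.33. Its difference of 0.95 stayed between 0.89 and 0.98 under the normalizations tried. Its relative Unc119, which carries acylated transducin in photoreceptors, was at -0.10. The next highest was the farnesyltransferase beta subunit Fntb (0.084), with -0.20 in its dimmer probe. At the low end were Icmt, the methyltransferase that completes the processing of prenylated proteins (-0.27, and from -0.29 to -0.25 over its 3 probes), and Arl3, the small GTPase that releases cargo from the Pde6d and Unc119 proteins (-0.22).

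Photoreceptor transcription factors had a median of -0.035 over 11 genes. The nuclear receptor Rxrg (2.77, but 1.23 in its other probe) and the homeobox gene Otx2 (0.063) were highest, and the nuclear receptors Esrrb (-1.09) and Thrb (-0.21) lowest. Crx, the homeobox factor that acts on many photoreceptor genes, was at -0.035, and Nrl, the leucine zipper factor of rods, at -0.16.

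Promoter sequence was on hand for 4 of the 7 genes, in a RefSeq table of build GRCm38.p6. The 250 bases before the start are printed for Pde6b, as the rod catalytic gene, for Pde6h, as the cone gene most level between the arrays, and for Aipl1, as the chaperone shared by both cell types. They were searched on both strands for TAATCC, letters bound by Crx and Otx2, and for TGCTGAC, a core of the Maf and Nrl type; matches are in capitals, and the 2 motifs did not overlap in these windows. For Aipl1 and Pde6h the start in that table lies within the annotated span of the gene. The windows are chr5:108388123-108388372 on the plus strand for Pde6b, chr6:136954273-136954522 on the plus strand for Pde6h and chr11:72037510-72037759 on the minus strand for Aipl1.
Pde6b: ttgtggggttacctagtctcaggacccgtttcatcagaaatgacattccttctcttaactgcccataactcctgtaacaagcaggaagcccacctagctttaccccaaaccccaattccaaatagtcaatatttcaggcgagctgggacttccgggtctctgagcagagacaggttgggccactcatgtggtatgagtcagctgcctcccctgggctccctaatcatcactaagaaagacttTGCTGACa
Pde6h: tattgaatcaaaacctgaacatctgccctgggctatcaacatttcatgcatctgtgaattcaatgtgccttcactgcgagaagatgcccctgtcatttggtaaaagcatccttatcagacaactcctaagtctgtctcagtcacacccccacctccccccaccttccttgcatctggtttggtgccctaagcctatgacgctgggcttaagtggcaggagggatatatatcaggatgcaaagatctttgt
Aipl1: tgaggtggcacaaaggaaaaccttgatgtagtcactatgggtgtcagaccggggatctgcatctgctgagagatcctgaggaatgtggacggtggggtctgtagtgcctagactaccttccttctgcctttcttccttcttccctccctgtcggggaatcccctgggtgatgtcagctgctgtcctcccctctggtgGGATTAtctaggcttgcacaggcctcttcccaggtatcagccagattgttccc

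TGCTGAC was found once among these windows, in Pde6b, from 8 to 2 bases before the start, and 3.81% of 32851 promoter windows of this length hold it. TAATCC was found in Aipl1 as its reverse complement GGATTA, from 53 to 48 bases before the start, and 6.25% of all windows hold it. No match to either was found in the Pde6h window or in that of Pde6d, which says only that these letters are not there. The differences of Pde6b (-0.069), Aipl1 (-0.065), Pde6h (-0.0098) and Pde6d (0.035) were all within the scanner error of 0.20.

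Choices in processing left the members near level. Over 9 other settings, Pde6g ranged from -0.21 to -0.17, Pde6a from -0.17 to -0.12, Pde6b from -0.11 to -0.035 and Aipl1 from -0.065 to -0.033. Pde6c ranged from -0.19 to -0.0004 and Pde6d from 0.035 to 0.0875. Only Pde6h changed sign, in 3 of the 9 settings, between -0.12 and 0.022. Some settings could not move a value. For the 5 genes with 1 probe, the mean over probes and the dimmest probe are the main value. No member spot was flagged and the authors' table differs by a constant per array, so these settings could not move any member beyond rounding.

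**Figure D4:**
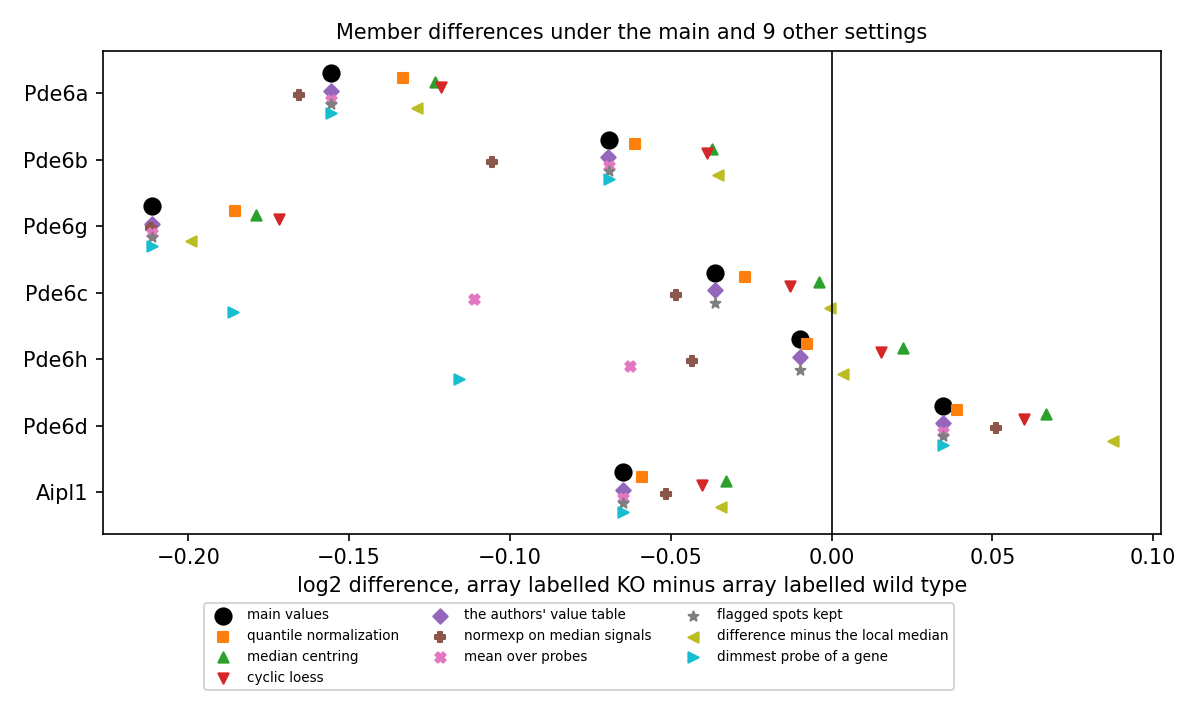
Log2 difference of each of the 7 genes (x axis, KO minus wild type) under the main values, in black, and 9 other settings. Pde6g, which some of these settings could not move, stays between -0.21 and -0.17. Pde6c and Pde6h are moved most by the choice of probe, to -0.19 and -0.12.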

How the data were processed

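Total RNA from 2 retina samples was labelled with Cy3 and hybridised to 1-colour Agilent arrays, per the labels' protocols. The scanner files hold linear intensity values, deposited by the authors as written by Agilent Feature Extraction 11.5.1.1 with protocol GE1_1105_Oct12 and an array design built on mm9, per the file headers. The authors' deposited value table holds the same intensity values times a constant per array (log2 of table over scanner signal 1.31 and 1.37, medians of 108 and 106), with no rule stated in those sources; it served as an alternative.

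Log2 processed signal was centred on the 75th percentile of the 59305 non-control spots of that array. Outlier spots (119 and 163) were left out, spots of a probe were averaged, and the brightest probe stood for a gene. A probe counted as above background when all its spots did. A gene seen on 1 array only was given a bound, against the lowest signal called above background on the other. Names came from transcript accessions in a RefSeq table of GRCm38.p6; 28330 of 55677 probes had 1 symbol and 27347 had none. No test was possible with 1 array per group, and the number of arrays limits the precision. Counting was tested on simulated data, made from the wild-type array with planted folds and the same spot noise at every intensity. That checks the counting only and does not cover variation between animals or labelling reactions. Python 3.11.15, pandas 2.3.3, R 4.3.3 and limma 3.58.1 were used.

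The members and lists were chosen with earlier results of these data known. Named genes were all members, Samd7 and the 3 genes nearest to the most different member. From each pathway list they were the 2 highest, the 2 lowest and all at least 2-fold apart. Other named genes, Rgs9, Unc119, Nudt9, Crx, Nrl, Grk1 and Gnat2, were chosen after their values were seen. Marker lists are given by counts. In the rod list, 1 gene is not named. The alternatives were other normalizations, background correction, the authors' table, probe summaries, flags, filters and thresholds; centring on neighbouring spots, use of the dimmest probe and leaving out Nudt9 were chosen after seeing the data.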

Additional observations from a re-analysis of the deposited data

How the results depend on the processing

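No member reached 2-fold under any alternative run, and only Pde6h changed its side of 0, being at 0.022 with median centring, 0.015 after cyclic loess and 0.0036 less its local median. The values that moved by more than the repeated-spot SD came from the choice of probe or from local centring. With the mean over probes, Pde6c was at -0.11, Pde6h at -0.063 and the rod minus cone gap at -0.058. With the dimmest probe they were at -0.19, -0.12 and 0.0055, and the median of the members was -0.12. Less its local median, Pde6d was at 0.0875. Why probes of a gene disagreed was not tested. Counts over all genes, 251 higher and 218 lower at 2-fold, were 120 and 45 with normexp on median signals, and the cause was not tested. They were 160 and 94 for genes above background on both arrays, which drops the bounds, and 579 and 671 with no filter. At other thresholds they were 972 and 1209 (the lowest threshold tried), 471 and 510 (1.5-fold) and 79 and 58 (4-fold). Members were at 0 in each direction in all 12 alternatives for these counts. Normexp used spot medians, since the files used here hold no spot means. No paired analysis was possible because there is 1 array per genotype.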
